A study of Mus musculus with 2 samples.

Results

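The regions described here are the long stretches of promoter DNA over which chromatin of mouse embryonic stem (ES) cells, the pluripotent cells of the early embryo grown in culture, was enriched for Ring1B. They were chosen by the measured values themselves. A region was kept where at least 3 consecutive probes of the tiling arrays had a running mean of 1 or more on the log2 scale, with gaps under 1000 bp, and where the run was at least 2000 bp long on a numbered chromosome. Each running mean averaged the probes, 3 or more, whose distance was up to 500 bp, and a value of 1 stands for a ratio of immunoprecipitated to input DNA that is 2-fold that of the median probe. The rule found 506 long regions, 232 on slide 1 and 274 on slide 2, among 5826 runs of any length on all chromosomes. They held 9277 of 414437 probes with a running mean on the numbered chromosomes, which is 2.24%.

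Ring1B is the E3 ubiquitin ligase of Polycomb repressive complex 1, which places ubiquitin on histone H2A and keeps chromatin of silent genes compact. Polycomb complexes are best known for holding genes of embryonic patterning and cell fate silent in cells that do not use them. In mammals their binding sites are mostly CpG islands, stretches of DNA that are rich in the dinucleotide CG and lack DNA methylation, and at some genes the complexes spread from there over many kilobases.

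The study measured ES cells in a single state, with a monoclonal anti-Ring1B antibody, and the labels give no genotype, line or treatment. Immunoprecipitated DNA carried the dye Cy5 and input DNA Cy3, both after amplification by linker-mediated PCR, on the 2 slides of a commercial promoter set that share 0 probes. The labels disagree in 1 respect: the sample titles speak of ES cells, whereas the source names start with Muscle but contain ESC. Each region was measured on 1 array, without a replicate, a dye swap or a mock immunoprecipitation, so the SD given with a value is the spread over probes and no difference could be tested. The same rule with the sign turned, a running mean of -1 or less, gives the number of runs on the other side of the median probe.

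The DNA of the probe with the highest running mean is shown for 3 of the longest regions outside the homeobox families and for the regions poorest in CG, because CG content is the sequence feature described below and these probes show how few CG a probe at the peak of a region could hold. Each is given as the array has it, in lower case with every CG in capitals. The strand and the genome build are not given in the sources used here. Only probes that the array annotates as promoter or divergent promoter are printed, and the corresponding probes at Olig2, Ebf2 and Bmi1 lie inside the gene. At least 1 CG was present in 44.1% of all probes and in 70.2% of the probes of long regions.
Gata2, chr6:88269763-88269821: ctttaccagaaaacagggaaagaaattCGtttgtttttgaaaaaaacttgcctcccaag
Tbx1, chr16:18139719-18139769: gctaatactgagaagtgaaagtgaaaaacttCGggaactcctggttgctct
Igf2, chr7:139088380-139088424: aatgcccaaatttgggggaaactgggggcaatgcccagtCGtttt
Grm6, chr11:50809626-50809678: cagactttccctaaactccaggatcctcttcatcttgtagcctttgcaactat
Mlc1, chr15:89063266-89063318: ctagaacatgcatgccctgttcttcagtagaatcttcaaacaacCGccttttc

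The Gata2 probe lies at -3968 bp, upstream of the start site, and had a log2 ratio of 2.86, with a running mean of 2.92. The Tbx1 probe, at -2915 bp, had 3.59 (running mean 3.03), and the Igf2 probe, at -1633 bp, had 3.29 (running mean 2.80). Each of these 3 probes holds 1 CG. The Grm6 probe holds 0 CG and had 2.01, and the Mlc1 probe holds 1 and had 1.16. At Olig2 the probe of highest running mean lay 2399 bp inside the gene (2 CG, log2 ratio 2.96) and at Ebf2 757 bp inside it (0 CG, 3.43).

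The long regions had a median length of 2810 bp, with quartiles of 2346 and 3866 bp, and ran from 2003 to 10406 bp. The median region held 16 probes and had a mean log2 ratio of 1.85, with quartiles of 1.65 and 2.05. These ratios describe the selection, since they chose the regions. With the sign turned the rule found 172 runs of at least 2000 bp, with a median of 2304 bp. That number depended on the processing far more than the number of long regions did: it was 23 with another background correction (normexp), 26 with the deposited series table, 20 at a threshold of 1.5 and 487 with a window of 1000 bp, where the long regions numbered 695, 660, 193 and 644. As reported, the excess over them grew with length above 2000 bp: 220 regions against 12 reached 3000 bp, 121 against 2 reached 4000 bp, and 26 against 0 reached 6000 bp. Among the runs of 2000 to 2500 bp the counts were 177 and 121. Below the limit the runs with the sign turned were more frequent in every class of 500 bp. They numbered 392 against 301 from 1500 to 2000 bp and 1203 against 671 from 1000 to 1500 bp. From 500 to 1000 bp the counts were 5005 against 2450, and under 500 bp 3073 against 1742.

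**Figure D1:**
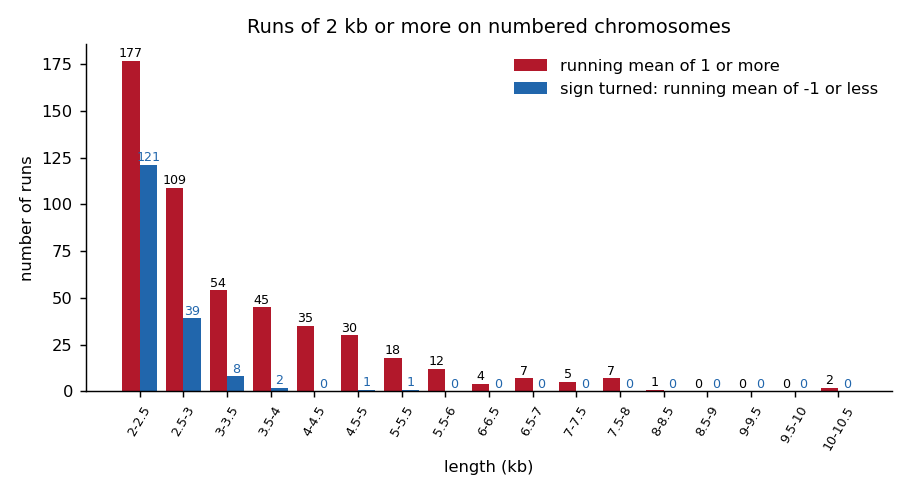
Number of runs (vertical axis) by length in classes of 500 bp (horizontal axis, in kb) on the numbered chromosomes, for running means of 1 or more (red) and for the same rule with the sign turned (blue). From 2000 bp upward the runs above the median probe are the more frequent in each class that holds any, by 177 to 121 in the first of these, and of the runs of 4000 bp or more 121 lie above and 2 below.

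The lengths form a continuous range across the limit of 2000 bp. The shortest members were 2009 bp at Ptger3 (mean 1.69 ± 1.41, SD over 12 probes), 2006 bp at Sgpp1 (1.70 ± 1.35, 11 probes) and 2003 bp at Bmi1 (2.27 ± 0.79, 10 probes). Just outside lay 1999 bp at Ascl2 (1.44 ± 0.61, 11 probes), 1998 bp at Adamts5 (1.97 ± 1.00, 11 probes) and 1998 bp at Dock8 (1.26 ± 1.13, 10 probes). Shh, the patterning signal of the neural tube and limb, had a run of 1988 bp with a mean of 1.84, and Ihh, which acts in cartilage and gut, 1967 bp with 1.71. None of the 12 measured genes of the Hedgehog pathway therefore has a long region, and these 2 were singled out after their values were seen.

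The tiling limits the lengths. A tiled stretch is a series of probes with gaps under 1000 bp, and the median stretch of at least 2000 bp was 4462 bp long. Of the 506 regions, 267 (52.8%) reached the first or last probe of their stretch and 20 covered it whole, so that their lengths are lower bounds. Among the 121 regions of at least 4000 bp, 91 reached an end. The 239 regions with both ends inside the stretch had a median length of 2596 bp. The median region took up 42.4% of its stretch.

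The 10 longest regions all lay at genes of developmental transcription factors, 8 of them homeobox genes. The longest 2 covered Hoxb6 and Hoxb5, and Hoxa10, Hoxa9 and the array's mmu-mir-196b, with 10406 and 10132 bp. They were followed by Lmx1b (8097 bp), Hoxa11 (7967 bp) and Lhx9 (7920 bp), and Otx2 (7787 bp), Nkx2-2 (7756 bp) and Msx1 (7729 bp) closed the list. The other 2 were Gata2, a blood stem cell factor, with 7810 bp and Olig2, which specifies oligodendrocytes and motor neurons, with 7788 bp. Of these 10, Hoxa11, Lhx9, Gata2, Olig2, Otx2, Nkx2-2 and Msx1 filled their tiled stretch from end to end.

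Outside the homeobox families, the region at Gata2 had a mean log2 ratio of 1.85 ± 0.83 (SD, 43 probes), with a lowest probe of 0.38, a median of 1.78 and a highest of 3.57. No probe of it lay below the median probe of the slide. Olig2 had a mean of 2.10 ± 1.13 (43 probes), with probes from -0.22 to 4.89 and a median of 1.83. Ebf2, a regulator of neurons and fat cells, carried 6982 bp with a mean of 2.14 ± 0.96 (40 probes, 0.02 to 3.47). Tbx1, needed for the pharyngeal arches and the outflow tract of the heart, carried 6797 bp with 1.88 ± 0.87 (38 probes, 0.15 to 3.59). At Ebf2 the probes of the same stretch outside the region had a mean of -0.05, and the upstream end of the region lay inside the stretch. At Igf2, a growth factor expressed from the paternal allele, 6693 bp had 2.03 ± 0.99 (34 probes, 0.13 to 3.63), whereas the rest of its stretch, farther inside the gene, had a mean of 0.15. This region also holds probes named for Mir483, which lies within Igf2.

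**Figure D2:**
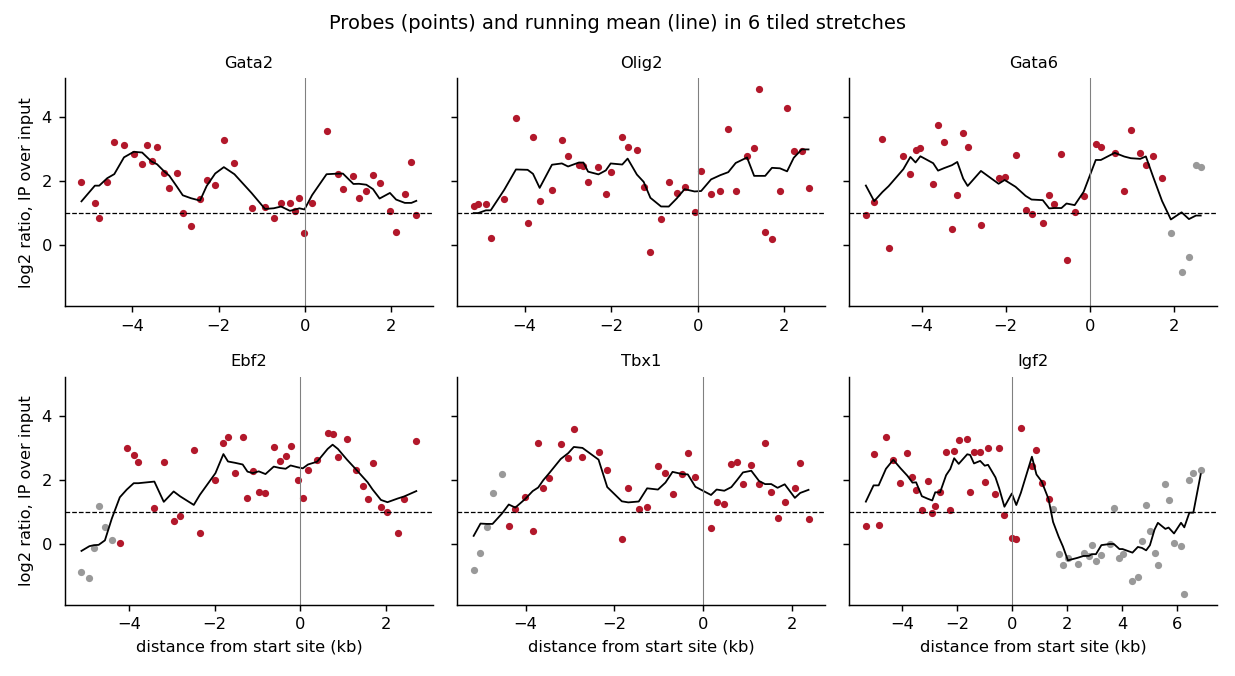
Log2 ratio of immunoprecipitated over input DNA (vertical axis) against distance from the start site in kb (horizontal axis, upstream to the left) in the stretches of 6 long regions outside the homeobox families: Gata2, Olig2, Gata6, Ebf2, Tbx1 and Igf2. Red points are probes of the region, grey points are other probes, the line is the running mean and the dashed line the threshold of 1; at Gata2 and Olig2 all 43 probes belong to the region, and at Igf2 the grey probes, which lie more than 1348 bp inside the gene, have a mean of 0.15.

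Of the 506 regions, 346 (68.4%; exact binomial interval 64.1% to 72.4%, counting error only) held the start site of a gene their probes name. Among runs under 2000 bp the share was 13.7%, and among long runs with the sign turned 25.6%. A longer run has more room for a start site, so the last of these is the closer comparison, although those runs were shorter too. Of the regions of at least 4000 bp, 87.6% held a start site. The probes were mostly placed around start sites, so a run of this length has few positions that miss one. The share that the tiling alone would give was not computed, so neither 68.4% nor 87.6% shows a preference for start sites. Only 15 held 2 or more start sites, among them Zic1 and Zic4 (5646 bp), a divergent pair of neural patterning factors, Col4a1 and Col4a2 (2909 bp), a divergent pair of basement membrane collagens, and Prdm16 with 5930403L14Rik (4167 bp).

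The regions lay on both sides of the start site. For 345 regions that covered the start of their leading gene, the gene with the most probes in them, the median region began 1376 bp upstream and ended 2034 bp inside the gene, and 203 extended farther inside than upstream. The upper quartile of the inner end was 2430 bp. A further 85 regions lay wholly upstream of the start and 57 wholly inside the gene or beyond it. Upstream regions included Cbx8 (-5028 to -214 bp), Dmrt3 (-5376 to -298 bp), Wnt11 (-4665 to -952 bp), Pax9 (-4719 to -408 bp) and Tbx2 (-4642 to -759 bp). The other probes of these stretches had means of 1.69, 1.52, 1.27, 1.92 and 0.86, in the same order. Signal was therefore not confined to these regions, and a second Pax9 region lay 899 bp away. Along the tile, the share of probe and gene pairs in long regions was 0.98% at 5500 to 5000 bp upstream, 3.17% at 1500 to 1000 bp upstream, 2.60% in the last 500 bp before the start and 2.93% from 500 to 1000 bp inside the gene.

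**Figure D3:**
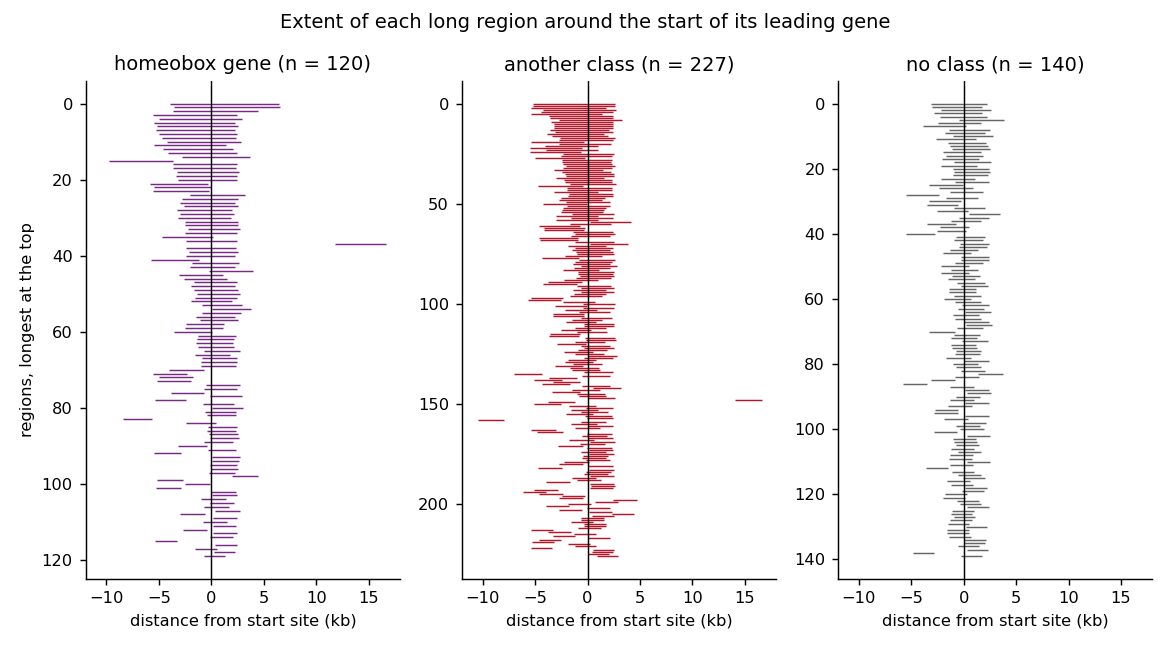
Extent of each long region (a horizontal line) in kb from the start site of its leading gene (vertical line at 0, upstream to the left), sorted by length from top to bottom, in 3 panels for homeobox genes, genes of another class and genes of no class. Most long regions span the start. The inner ends of those that do have a median of 2034 bp and an upper quartile of 2430 bp, near which the tile itself can end. Of the 506 regions, 487 had a leading gene with a placed start.

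Neighbouring regions often belonged to the same gene. There were 62 pairs of long regions less than 20000 bp apart, involving 102 regions, and the partners of 47 pairs named the same gene. In 27 pairs no homeobox gene was involved. Osr2, a limb and kidney factor, carried 3034 bp (mean 2.22 ± 1.18, 18 probes) and 2200 bp (1.96 ± 1.38, 14 probes) with 165 bp between them. Fgfr2, a receptor of fibroblast growth factors, carried 2958 bp (2.00 ± 0.84, 17 probes) over its start and 2224 bp (1.51 ± 1.13, 13 probes) farther inside, 296 bp apart. Hand2, a heart and limb factor, Skor1, Pcdh8, Sp8, Sall3, Tbx3 and Tfap2a were also split in this way. The gap was under 1000 bp in 23 pairs.

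The 506 regions were richer in CG than the other probes of the arrays, a property that the rule did not use. They held 2.84 CG per 100 probe bases, against 1.38 over all probes, 1.95 in runs under 2000 bp and 0.97 in the long runs with the sign turned. The median region had 2.80 CG per 100 bases, with quartiles of 2.16 and 3.52. The ratio of observed to expected CG was 0.55 in long regions and 0.33 over all probes. GC content differed less, 45.8% against 41.7%. Of 480 regions with at least 3 other probes in their stretch, 407 (84.8%) had more CG than those probes, with medians of 2.81 inside and 1.30 outside. With the sign turned, 62 of 155 runs (40.0%) had more CG than the rest of their stretch. Among runs under 2000 bp, 2396 of 4838 (49.5%) did. Probes near start sites were richer in CG in general. They held 2.82 per 100 bases in the last 500 bp upstream and 3.67 in the first 500 bp inside. From 5500 to 5000 bp upstream the value was 0.80. Long regions covered a start more often than the other runs, and the part of position in the CG difference was not tested.

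The share of probes in long regions rose with their own CG count up to 3 and fell beyond it. It was 1.19% for probes with 0 CG, 2.46% with 1, 4.89% with 2 and 6.53% with 3, and it was 6.14%, 5.57% and 4.70% with 4, 5 and 6 or more. In each of 5 classes of probe GC content the share was higher for probes with 3 or more CG than for probes with none, from 5.87% against 1.54% in the GC-richest class to 8.20% against 0.81% in the poorest. Signal strength moved with CG as well. Median input signal was 232 units for probes with 0 CG and 1210 for those with 3, and 19.4% and 3.11% of them stood at the floor value in both channels. Probes of long regions were bright (median input signal 913, against 326 over all probes, and 0.50% at the floor), but so were those of the runs with the sign turned (1478). The part of brightness in the CG pattern was not tested.

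**Figure D4:**
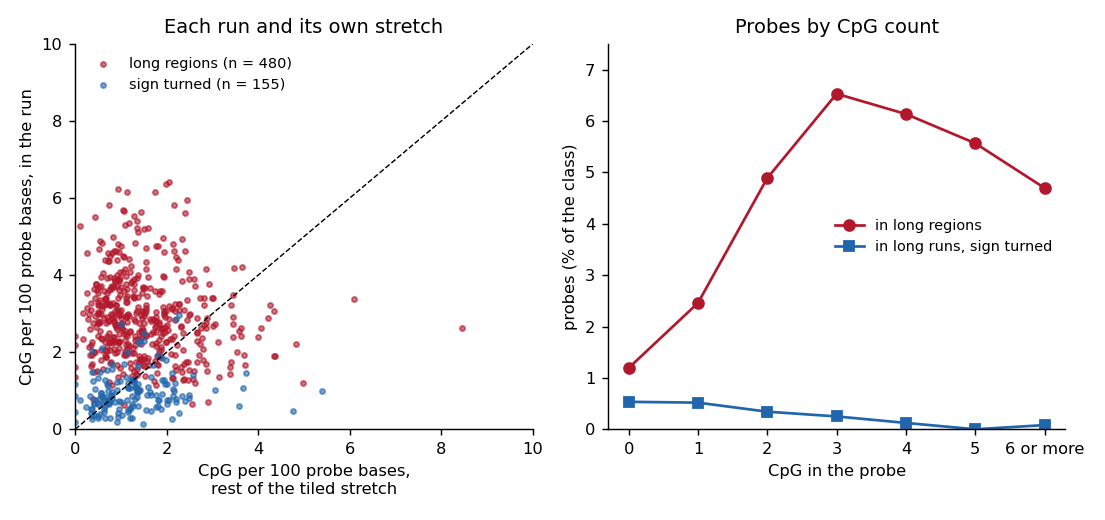
Left, CG per 100 probe bases in each run (vertical axis) against the rest of its tiled stretch (horizontal axis) for 480 long regions (red) and 155 runs with the sign turned (blue), with the line of equality dashed. Right, percent of probes in long regions and in long runs with the sign turned (vertical axis) by the number of CG in the probe (horizontal axis); the first rises from 1.19% at 0 CG to 6.53% at 3, and the second falls from 0.53% at 0 CG to 0.25% at 3.

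Longer regions were not richer in CG. Across the 506 regions Spearman's rho between length and CG per 100 bases was -0.11, and that between CG per 100 bases and mean log2 ratio was 0.21; the regions share 2 arrays and these values are descriptions. Regions at homeobox genes had a median of 2.51 CG per 100 bases, regions at the other classes pooled 2.86 and regions at genes of no class 2.98. Some regions were poor in CG. The second region at Bmi1 had 0.34 per 100 bases, Grm6 (2409 bp, mean 1.64 ± 0.96, 9 probes) 0.42 and the region between Mlc1 and Mov10l1 (2321 bp, 1.37 ± 1.19, 14 probes) 0.63. All 3 were under 2500 bp, the length range that also held 121 of the 172 runs with the sign turned.

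Genes with a probe in a long region numbered 511 of 16289 measured, which is 3.14%; with the sign turned they numbered 195, or 1.20%. Homeobox genes accounted for 121 of the regions (23.9%), and the other 385 are the subject of what follows. Of the latter, 233 named a gene of 31 further classes, 147 named genes of none of these classes and 5 named no gene. Counted by gene, 221 of 3309 measured genes in the further classes had a long region (6.68%). Among genes of no class 181 of 12797 did (1.41%). In 24 of the 31 classes the share of genes with a long region was above that of all genes, in 3 it was lower and in 4 it was 0. These classes were drawn up with earlier results of these data known, and since the same ratios chose the regions, the counts are descriptions without a test. Any transcription factor class, homeobox included, was named by 246 regions (48.6%) and by 7 of the 172 runs with the sign turned (4.07%). Homeobox genes were 183 of the 16289 measured genes. The share of all measured genes in these classes together was not computed, so neither percentage has its background beside it.

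**Figure D5:**
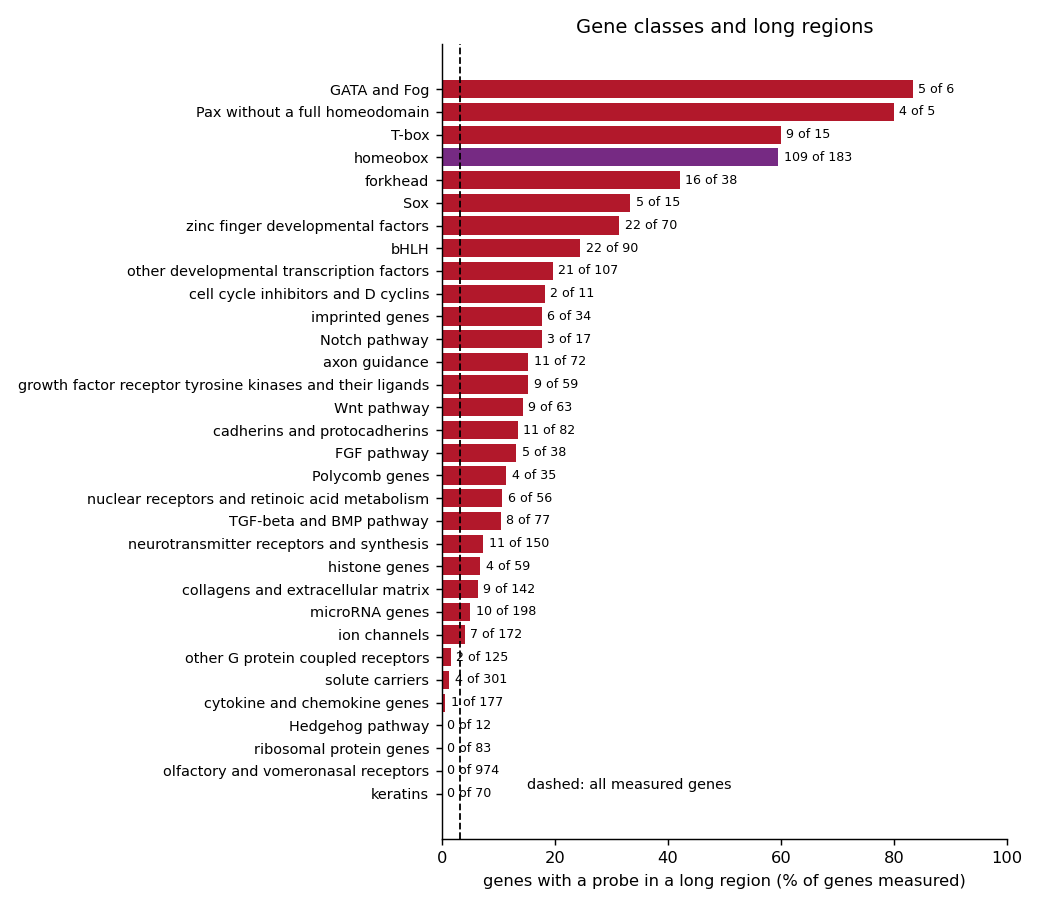
Percent of the measured genes of each class with a probe in a long region (horizontal axis), with the counts beside the bars; homeobox genes are in purple and the dashed line marks 3.14%, the share of all measured genes. Families of developmental transcription factors stand at the top, and olfactory receptors, keratins, ribosomal protein genes and the Hedgehog pathway have no gene with a long region.

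Families of transcription factors that act in germ layers and organ rudiments had the highest shares. Among GATA factors and their Fog cofactors, which direct blood, heart and endoderm, 5 of 6 genes had a long region. Gata6 carried 7097 bp (mean 2.08 ± 1.09, 37 probes), Gata4 5512 bp (2.09 ± 0.93, 28 probes) and Gata3 4362 bp, and Zfpm2, which encodes Fog2, 2541 bp. Gata5 was the exception, with 1710 bp at a mean of 1.81. Of the 5 Pax genes without a full homeodomain, Pax1, Pax2, Pax5 and Pax9 had long regions and Pax8, with a run of 1878 bp, did not. The longest were Pax9, a tooth and thymus factor (4312 bp, 1.80 ± 0.86, 24 probes), and Pax5, the B cell factor (3839 bp, 2.28 ± 0.91, 23 probes). Of 15 T-box genes, 9 had a long region and after Tbx1 came Tbx2 (3884 bp, 1.74 ± 0.93) and Tbx20 (3615 bp, 1.62 ± 0.89), both factors of the developing heart. Tbx5, a forelimb and heart factor, had 842 bp and Tbx6, of the paraxial mesoderm, no run at all. Eomes had 2353 bp.

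In the forkhead family 16 of 38 genes had a long region. Foxl2, the ovarian factor, had 4993 bp (1.94 ± 1.18, 25 probes), Foxb2 4596 bp (2.18 ± 1.01, 26 probes) and Foxa2, the endoderm and floor plate factor, 4437 bp (1.75 ± 0.84, 21 probes). Foxo1, Foxo3 and Foxo6, which respond to insulin signalling, had runs of 879, 640 and 1108 bp, and the cell cycle factor Foxm1 had none. Of 15 Sox genes 5 had a long region. Sox21 had 5360 bp (1.93 ± 0.88, 32 probes) and Sox9, of cartilage and testis, 4632 bp (1.69 ± 0.85, 26 probes). A region of 2781 bp (1.43 ± 0.70, 16 probes) named LOC434280, its leading gene, and Sox1. The only start site placed inside it was that of LOC434280. Sox2 had a run of 473 bp.

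Among bHLH genes, 22 of 90 had a long region. After Olig2 came Sim2, a midline factor (5927 bp, 2.15 ± 0.88, 29 probes), and Hand1, of heart and trophoblast (5188 bp, 1.71 ± 0.85, 28 probes). Zinc finger factors of development had 22 of 70, led by the blood repressor Gfi1 (5875 bp, 2.17 ± 0.88, 34 probes), Zic1 with Zic4 (1.87 ± 1.18, 22 probes) and the limb factor Sp8 (5589 bp, 1.92 ± 0.96, 33 probes). Other developmental transcription factors had 21 of 107. Lef1, the nuclear partner of beta-catenin, had a mean of 2.46 ± 1.10 over 5601 bp (26 probes), and Dmrt3, of spinal interneurons, carried 5079 bp (1.89 ± 1.24, 29 probes). Nuclear receptors and retinoic acid genes had 6 of 56. Nr2e1, a neural stem cell receptor, had 2.48 ± 0.81 over 4186 bp (24 probes), Nr2f1 1.98 ± 1.42 over 4395 bp (20 probes) and Nr4a2, of dopamine neurons, 1.73 ± 1.07 over 4254 bp (22 probes).

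Signalling pathways were represented too. In the Notch pathway 3 of 17 genes had a long region. Dll4, which guides vessel sprouting, had 5995 bp (1.69 ± 0.80, 33 probes), Dll1 4927 bp (1.71 ± 0.92, 27 probes) and Dlk1, a non-canonical ligand encoded by an imprinted gene, 2378 bp (1.83 ± 1.11, 15 probes). Other ligands and related genes did not: Jag1 and Dner had no run, Dll3 had 375 bp and Dlk2 783 bp. The receptors Notch1, Notch3 and Notch4 had no run, and Notch2 had 1333 bp. In the Wnt pathway 9 of 63 genes had a long region: the receptor Fzd8 (4205 bp, 2.12 ± 1.11, 23 probes), the ligand Wnt11 (3714 bp, 1.71 ± 0.90, 25 probes) and the divergent ligands Wnt10b and Wnt1 (3588 bp, 2.12 ± 1.11, 17 probes) were the longest. The FGF pathway had 5 of 38. The ligand Fgf9 carried 5123 bp (2.01 ± 1.04, 30 probes), Fgf12 3095 bp (1.78 ± 1.20, 18 probes) and Fgf3 2365 bp, next to the receptors Fgfr2 and Fgfr3. Fgf4 had no run.

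The TGF-beta and BMP pathway had 8 of 77. Bmp6 had 4709 bp (2.09 ± 1.22, 25 probes), the activin antagonist Fst 4034 bp (2.28 ± 1.02, 21 probes) and Vwc2, a secreted BMP antagonist, 4006 bp (1.89 ± 1.05, 22 probes). Growth factor receptor tyrosine kinases and their ligands had 9 of 59. After Igf2 came Pdgfra, the receptor of platelet-derived growth factor in mesoderm (4880 bp, 2.01 ± 1.05, 31 probes), and Flt1, a receptor of vascular endothelial growth factor (3107 bp, 2.02 ± 1.01, 18 probes). Imprinted genes had 6 of 34, and next to Igf2 these included Rasgrf1 (2789 bp, 2.21 ± 1.21, 18 probes) and Dio3 (2785 bp, 1.39 ± 1.30, 12 probes). Of 11 cell cycle inhibitors and D cyclins 2 had a long region. Ccnd2, a D cyclin, had 6102 bp (2.16 ± 1.32, 31 probes) and the inhibitor Cdkn1c, also imprinted, 2576 bp (12 probes). Ccnd1 and Ccnd3 had no run.

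Several classes of genes that differentiated cells use had shares above the 3.14% of all genes. Axon guidance genes had 11 of 72, with the receptor Nrp2 (4671 bp, 1.91 ± 0.83, 26 probes), Sema6a (3460 bp, 1.87 ± 1.46, 20 probes) and Nrn1 (3190 bp, 2.21 ± 0.82, 20 probes). Cadherins and protocadherins had 11 of 82. Their longest regions, at the non-clustered protocadherins Pcdh17 (5689 bp, 2.14 ± 1.01, 35 probes), Pcdh7 (5629 bp, 2.35 ± 0.94, 30 probes) and Pcdh10 (4692 bp, 2.18 ± 0.95, 26 probes), are in the range of the transcription factors named above. Neurotransmitter genes had 11 of 150, with the glutamate receptor family member Grid1 (4729 bp, 1.75 ± 0.89, 24 probes), Slc32a1, which loads vesicles with GABA (4570 bp, 1.43 ± 0.82, 23 probes, no long region with a running median or at a threshold of 1.5), and the somatostatin receptor Sstr1 (3172 bp, 1.79 ± 1.18, 21 probes). Collagens and other matrix genes had 9 of 142, with Col12a1 (3971 bp, 2.10 ± 1.09, 22 probes), Col2a1 of cartilage (3136 bp, 1.80 ± 1.12, 18 probes) and Col14a1 (3099 bp, 1.75 ± 1.01, 16 probes).

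Ion channels, transporters and receptors of other kinds were closer to the share of all genes or below it. Ion channels had 7 of 172, the longest at Kcna1 (3466 bp, 1.82 ± 0.96, 21 probes), Kcnk13 (3422 bp, 1.69 ± 0.85, 21 probes) and Trpm6 (3272 bp, 1.42 ± 1.07, 16 probes). Solute carriers had 4 of 301, with Slc9a2 (2949 bp) and Slc30a3 (2581 bp) after Slc32a1. Other G protein coupled receptors had 2 of 125, at the prostaglandin receptors Ptger4 (3702 bp, 1.40 ± 0.91, 15 probes) and Ptger3. The region at Ptger4 was not found without probes dim in input or at a threshold of 1.5. Of 59 histone genes 4 lay in 2 regions of 2240 bp (H3c8 and H2ac10, 1.83 ± 0.83, 10 probes) and 2127 bp (H2ac1 and H2bc1, 1.87 ± 0.85, 11 probes). The first of these was not found with normexp, loess, the series table, the window of 1000 bp, the threshold of 1.5 or without probes dim in input, and 50.0% of its probes were well above background in input (median input signal 71.9). No long region was found at 974 olfactory and vomeronasal receptors, 83 ribosomal protein genes or 70 keratins. With the sign turned, 5 long runs lay at ion channels, 4 at solute carriers, 1 at other G protein coupled receptors and 0 at histone genes. The long regions of these classes numbered 7, 4, 2 and 2. Ion channels and other G protein coupled receptors thus stood little above the runs with the sign turned, and solute carriers were level with them.

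Genes of the Polycomb machinery had long regions in 4 of 35 cases. Cbx8, a chromodomain subunit of complex 1, had 4815 bp (1.83 ± 0.96, 28 probes; lowest -0.29, median 1.98, highest 3.28), and the probes outside the region in its stretch had a mean of 1.69. The regions at Bmi1, which encodes the partner of Ring1B in the ligase module, were separate. The first, 3681 bp with a mean of 1.65 ± 0.78 (22 probes), has the neighbouring gene Commd3 as its leading gene, and the second was the 2003 bp region, which filled its tiled stretch. The first was dim in input (median signal 121, 72.7% of probes well above background) and was not followed under other settings. Pcgf1, another partner, shared a region of 3387 bp (2.23 ± 1.07, 20 probes) with the homeobox gene Tlx2. Rnf2, which encodes Ring1B, and Ezh2, Suz12 and Ring1 had no run.

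Among 198 microRNA genes on the arrays 10 had a long region. Their mature sequences, taken from RefSeq (GRCm38.p6), are shown for those described next, because 2 of them share a seed and 2 of the genes give the same mature strand; the seed, bases 2 to 8, is in capitals. The array's mmu-mir-124a-1 and mmu-mir-124a-3 are named only.
mmu-miR-9-5p: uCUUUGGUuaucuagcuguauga
mmu-miR-129-5p: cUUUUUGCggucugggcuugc
mmu-miR-449a-5p: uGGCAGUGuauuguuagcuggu
mmu-miR-196a-5p: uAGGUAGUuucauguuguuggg
mmu-miR-196b-5p: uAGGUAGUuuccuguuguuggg

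Both copies of miR-9 with a long region, Mir9-1 (2429 bp, 2.24 ± 1.20, 15 probes) and Mir9-3 (3837 bp, 1.59 ± 0.87, 19 probes), give the same mature strand, a microRNA of neural progenitors. The array's mmu-mir-129-2 had 4239 bp (1.63 ± 0.85, 25 probes). At miR-124, the most abundant microRNA of neurons, mmu-mir-124a-1 had 3690 bp (1.82 ± 1.28, 21 probes) and mmu-mir-124a-3 2628 bp (1.74 ± 1.10, 14 probes). Mir449a, which acts in ciliated cells, had 3007 bp (1.88 ± 1.14, 15 probes). The array's mmu-mir-196a-2 and mmu-mir-196b share a seed, and with Mir10a they lie in regions named for neighbouring Hox genes as well. With the sign turned, long runs lay at 5 of the 198 microRNA genes.

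The longest regions at genes of no class were Gfra1, a receptor of glial cell line-derived neurotrophic factor (5379 bp, 2.10 ± 1.23, 30 probes), the stress-responsive transcription factor Atf3 (4756 bp, 2.08 ± 0.87, 24 probes), Tril (4747 bp, 2.22 ± 1.00, 27 probes), Tmem132e (4523 bp, 1.90 ± 1.31, 29 probes) and Gfra2, the receptor of neurturin (4475 bp, 1.86 ± 1.02, 26 probes). Each of these had a mean below the median probe in the rest of its stretch, -0.76, -0.03, -0.73, -0.42 and -1.19 in the order named. Regions of this group had a median length of 2450 bp, against 2894 bp for the other classes and 3626 bp for homeobox genes, and 74.2% of them held a start site. The 5 regions without a named gene were short. The longest, on chromosome 18 from 55371631 to 55374166, measured 2536 bp (1.92 ± 0.98, 12 probes), and the next, of 2291 and 2140 bp, lay on chromosomes 2 (118636830 to 118639120) and 15 (41445051 to 41447190).

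Long regions were found on all 19 numbered chromosomes, from 11 on chromosome 17 to 51 on chromosome 2. As a share of measured genes they were most frequent on chromosomes 12 (5.23%), 18 (5.11%) and 14 (4.72%) and least on chromosome 17 (1.61%). The slides gave like lengths, with medians of 2824 bp on slide 1 and 2760 bp on slide 2, and like CG content, 2.80 and 2.78 per 100 bases, but homeobox genes were named by 30.6% of the regions on slide 1 and by 18.2% on slide 2. The slides share 0 probes, so their regions come from different tiled DNA. The number of homeobox genes measured on each slide was not compared. The longest runs with the sign turned lay at Hsd17b2 (5321 bp, -1.89 ± 1.27, 23 probes), at Rps6kb2 and Tbc1d10c (4721 bp, -1.69 ± 1.28, 23 probes) and at Mir34b and Btg4 (3838 bp, -1.59 ± 1.61, 21 probes). The spread over probes was larger in these runs, with a median SD of 1.28 against 0.99 in the long regions.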

How the data were processed

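The deposited array files hold fluorescence intensity values. Per the file headers, the scanner software was Agilent Feature Extraction, version 9.1.3.1, and the signals are background-subtracted, dye-normalized signals with dim spots set to a floor. The deposited series table holds the log2 ratio of the uncorrected mean signals (largest difference 5e-05, its medians 0.79 and 0.82), so its scale and direction were settled and it is not centred. The log2 ratio of red (immunoprecipitated) over green (input) processed intensity was centred on each slide's median probe (0.23 and 0.16). Control spots and 141 and 17 outlier probes were left out, which left 237054 and 237168. Precision is limited by there being 1 array per slide. Probes without a running mean (43522) were skipped when runs were formed. Names on the arrays (17113) were matched to present symbols by accession (8147), symbol (6419) or older symbol (2103), and 444 were not matched. Start sites came from distances given for slide 1 and otherwise from the boundary of promoter and inside-gene probes, which differed by a median of 50 bp over 7675 genes. Promoter sequences of RefSeq matched 69.8% of the 361 genes with a start site in a long region, under the share needed, so no promoter comparison was made.

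The members, gene classes and naming rule were chosen with earlier results of these data known. Named are the 10 longest regions, the 3 longest of each class outside homeobox families, the 5 longest at genes of no class, the 3 longest without a gene, the 3 regions just inside and outside the length limit, the 3 with the fewest CG per probe and the 3 longest with the sign turned. Other members are named where a class is accounted for, after their values were seen. Some genes that this rule takes are not reported here. A region belongs to a gene if a probe in it names that gene, and a gene needed 3 probes. Analyses used Python with pandas 2.3.3 and, for alternatives, limma 3.58.1; region finding was tested on simulated data. Intervals are 95% exact binomial. Alternatives changed the background correction, centring, normalization, source, dim probes, probe GC, window, gap, threshold and running median.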

Additional observations from a re-analysis of the deposited data

Results flagged for a closer look

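The X chromosome, which the rule for numbered chromosomes leaves out, held 12 long regions, against 0 with the sign turned. The longest had 3698 bp and lay at Cited1 (mean log2 ratio 1.48 ± 1.07, SD over 23 probes). Others lay at Bcor, a Polycomb partner (3314 and 2633 bp), and at Hs6st2, Fgf16, Sox3, Gpr50, Mir351 and Apoo.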

How the results depend on the processing

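Each region was measured once, so no value has a replicate error, and lengths are resolved to the probe spacing (median 177 bp). The number of long regions was between 457 and 695 under 11 other settings, all within 1.5 times of 506, but 193 at a threshold of 1.5 and 239 without regions that reach the end of a stretch, which removes members by construction. The number with the sign turned (172) moved more: 23 with normexp, 78 without centring, 26 with the deposited series table, 276 without probes dim in input, 487 with a window of 1000 bp, 87 with gaps under 500 bp, 20 at the threshold of 1.5 and 82 without regions at a stretch end. The median length of 2810 bp became 2923 bp with loess, 3020.5 bp with the wider window, 2647 bp at 1.5 and 2596 bp without regions at a stretch end. The percent at a homeobox gene (23.9) became 19.0 with normexp, 18.5 without centring, 19.9 with the series table, 19.7 with the wider window, 34.7 at 1.5 and 16.7 without regions at a stretch end. The percent with a start site inside (68.4) became 77.5 with normexp, 76.1 with loess, 76.8 with the series table, 76.5 with the wider window and 56.5 at 1.5. Apart from the fewer regions left by construction, the cause was not tested. The mean CG per probe in long regions (1.46) lay between 1.42 and 1.55 over the 13 settings. Of 36 named regions followed, the length stayed within 1.5 times in 392 of 468 values. The other named regions were not followed under these settings. Beside the higher threshold and the stretch ends, which took out 8 and 27 of them, the region at H3c8 fell under 2000 bp with normexp, loess, the series table, the wider window and without dim probes, Ptger4 without dim probes, Slc32a1 with the running median, and 1 region without a named gene with gaps under 500 bp. Ending runs at probes without a running mean, leaving out floor probes and leaving out regions at stretch ends were settings added after seeing the data. No paired analysis was possible because each group has 1 array.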
